A study of Homo sapiens with 4 samples.

Results

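The genes that fold proteins in the endoplasmic reticulum (ER), form their disulfide bonds and send misfolded ones to degradation were compared between LNCaP95 cells and LN95(KO) cells. The set was 49 genes, listed by symbol for their known function. All 49 matched a gene identifier among the 60880 genes of the count files. They comprised 18 folding helpers, 17 disulfide enzymes and 14 genes of ER-associated degradation (ERAD).

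The study asked how the glucuronidating enzyme UGT2B17 acts in prostate cancer, including in ER protein folding. LNCaP95 is a human prostate cancer line derived from LNCaP by long-term androgen depletion, and LN95(KO) is, per the sample labels, a CRISPR knockout of UGT2B17 in that line. The design text of the series writes LNCaP where the sample labels write LN95 for the knockout. The paper states that the knockout lines were made from LNCaP95. From these counts alone, any difference of parent line could not be told apart from the knockout. The labels give 2 RNA-Seq libraries of LNCaP95 (genotype WT, numbered 1 and 2) and 2 of LN95(KO) (numbered 3 and 4), all from untreated cells grown in RPMI1640 medium whose serum had been stripped with charcoal. The labels give neither the number of knockout clones nor whether the libraries of a group came from separate cultures, so p-values measure the spread between these libraries only.

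The libraries held 17330338 to 18813193 reads on genes. UGT2B17 checked the labels, with 2788 and 2748 reads in LNCaP95 against 21 and 20 in LN95(KO). All 9 markers of prostate epithelium had over 10 reads in every library. Their levels were not all alike between the groups, as 3 were called higher and 1 lower in LN95(KO). That is 44.4% against 18.0% of all genes tested, and log2 fold changes ran from -1.30 to 3.62. Of 13 markers of stromal, immune, endothelial and basal cells, 7 had under 4 reads in every library, including 4 with no read at all. Of the 5 that could be tested, 3 were called, all at low counts. VWF (endothelial) had 8 and 8 reads in LNCaP95 against 49 and 58 in LN95(KO), KRT14 (basal) had 1 and 2 against 17 and 20, and LUM (fibroblast) had 24 and 19 against no read. COL1A1 rose by a log2 fold change of 0.22 (edgeR adjusted p = 0.0227), and ACTA2 did not pass the test. The summed level of these 13 was 33.5 to 34.0 CPM in LNCaP95 and 40.1 to 42.1 CPM in LN95(KO), where CPM is the read count scaled to a library of 1000000 gene reads after TMM normalization. Most of it was COL1A1 (28.4 to 34.2 CPM), and the fibroblast marker DCN had no read in any library. The share of entries not aligned also differed, at 3.85% and 3.96% in LNCaP95 against 8.05% and 7.71% in LN95(KO). The part of these differences in the results was not tested. In bulk RNA, fewer cells of a type and less RNA per cell cannot be told apart.

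A secreted or membrane protein enters the ER unfolded. The Hsp70 chaperone BiP (HSPA5) and the Hsp90 chaperone GRP94 (HSP90B1) hold it, J proteins load it onto BiP, calnexin (CANX) and calreticulin (CALR) bind its sugar chains, and disulfide isomerases pair its cysteines with oxidizing power from ERO1. A protein that fails to fold is recognized by EDEM proteins and the lectins OS9 and ERLEC1, passed through a membrane complex built around SEL1L and the ubiquitin ligase SYVN1, and pulled out by VCP. Many of these genes are induced by the unfolded protein response, which the transcription factors ATF6 and XBP1 carry to their promoters, and secretory cells such as prostate epithelium keep the system at a high level.

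The promoter elements through which that response is known to act are shown first, because they set members with the same element but different changes side by side. In the RefSeq promoters (GRCh38.p14), 250 bases before to 50 after each start were searched on both strands for the ER stress element, which is CCAAT, then 9 bases of any kind, then CCACG. It was found in 7 of the 44 members with an entry (15.9%) and in 25 of all 27305 genes of the table (0.0916%). Each match is written in the orientation of the element, with its fixed bases in capitals and the bases between them in lower case.
HSPA5, chr9:125241391-125241409, minus strand: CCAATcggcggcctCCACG
HSP90B1, chr12:103930216-103930234, plus strand: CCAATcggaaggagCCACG
HSP90B1, chr12:103930321-103930339, minus strand: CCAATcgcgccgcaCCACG
CALR, chr19:12938384-12938402, minus strand: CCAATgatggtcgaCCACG
CANX, chr5:179698778-179698796, plus strand: CCAATcttcacactCCACG
CRELD2, chr22:49918554-49918572, minus strand: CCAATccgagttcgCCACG
PDIA6, chr2:10812853-10812871, minus strand: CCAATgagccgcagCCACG
ERO1B, chr1:236282183-236282201, plus strand: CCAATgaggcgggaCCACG
Only exact matches were counted, not near ones, and HSP90B1 was the only one of these 7 promoters with 2 exact copies. A shorter relative of the element, with 1 base of any kind between ATTGG and CCACG, was added after the data were seen. It was present in 3 members of 44 (6.82%) and in 0.0696% of all genes, and it shares its CCACG end with the ER stress element.
SDF2L1, chr22:21642114-21642124, minus strand: ATTGGtCCACG
HERPUD1, chr16:56932025-56932035, plus strand: ATTGGgCCACG
HYOU1, chr11:119057380-119057390, plus strand: ATTGGaCCACG
HYOU1, chr11:119057274-119057284, plus strand: ATTGGaCCACG

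Whole upstream regions are shown for 3 members that carry these elements and took different courses in LN95(KO), with the elements in capitals on the strand of the gene. HSP90B1 rose, HSPA5 did not pass the test and HERPUD1 fell, as described further on.
HSP90B1, chr12:103930160-103930409, plus strand: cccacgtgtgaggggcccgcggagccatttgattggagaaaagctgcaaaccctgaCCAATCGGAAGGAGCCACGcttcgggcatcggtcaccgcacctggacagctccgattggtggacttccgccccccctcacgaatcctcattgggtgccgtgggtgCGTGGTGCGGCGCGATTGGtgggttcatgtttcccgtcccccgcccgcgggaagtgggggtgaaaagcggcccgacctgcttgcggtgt
HSPA5, chr9:125241344-125241593, minus strand: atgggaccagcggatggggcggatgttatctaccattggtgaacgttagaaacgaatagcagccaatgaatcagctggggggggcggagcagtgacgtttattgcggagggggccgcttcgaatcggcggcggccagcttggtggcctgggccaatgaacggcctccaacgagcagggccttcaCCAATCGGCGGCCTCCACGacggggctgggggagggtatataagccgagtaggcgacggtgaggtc
HERPUD1, chr16:56931892-56932141, plus strand: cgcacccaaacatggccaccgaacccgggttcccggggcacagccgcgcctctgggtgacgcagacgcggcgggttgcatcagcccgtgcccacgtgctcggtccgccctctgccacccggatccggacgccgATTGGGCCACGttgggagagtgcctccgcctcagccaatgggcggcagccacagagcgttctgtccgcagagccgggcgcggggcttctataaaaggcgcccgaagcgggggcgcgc

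Levels are given in CPM, and levels of different genes are compared only as CPM per kilobase of exon (RPKM). A gene was called when edgeR's quasi-likelihood test, with Benjamini-Hochberg adjustment over the 15626 genes tested, gave an adjusted p under 0.05 and the fold change was over 2. "Rose" and "fell" are used for an adjusted p under 0.05 at any fold. Log2 fold changes are LN95(KO) over LNCaP95 with their standard error (SE).

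Of the 49 genes, 48 were tested. The exception was AGR3, a secretory epithelial relative of the disulfide isomerases, with no read in any of the 4 libraries, which allows up to 3 counts in each. Of the 48, 17 rose, 12 fell and 19 did not pass the test. Passing it at any fold took 60.4% of the members and 59.8% of all genes tested (29.8% higher and 30.1% lower), so the share of members that moved was near the background. Under upper-quartile scaling the split was 14 higher and 15 lower, and under library totals it was 19 higher and 11 lower.

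Called genes numbered 5 of 48, or 10.4%, against a background of 18.0% (8.86% higher and 9.13% lower). ERO1A, AGR2 and DERL3 were called higher, and DNAJC10 and DNAJB9 lower. The members' changes were mostly small, with a median absolute log2 fold change of 0.24 against 0.37 for all genes. All genes tested were used, without matching for expression level. The signed median was 0.02 for members and -0.01 for all genes. Libraries of the 2 groups did not overlap in CPM for 43 of the 48, against 79.8% of all genes tested.

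**Figure D1:**
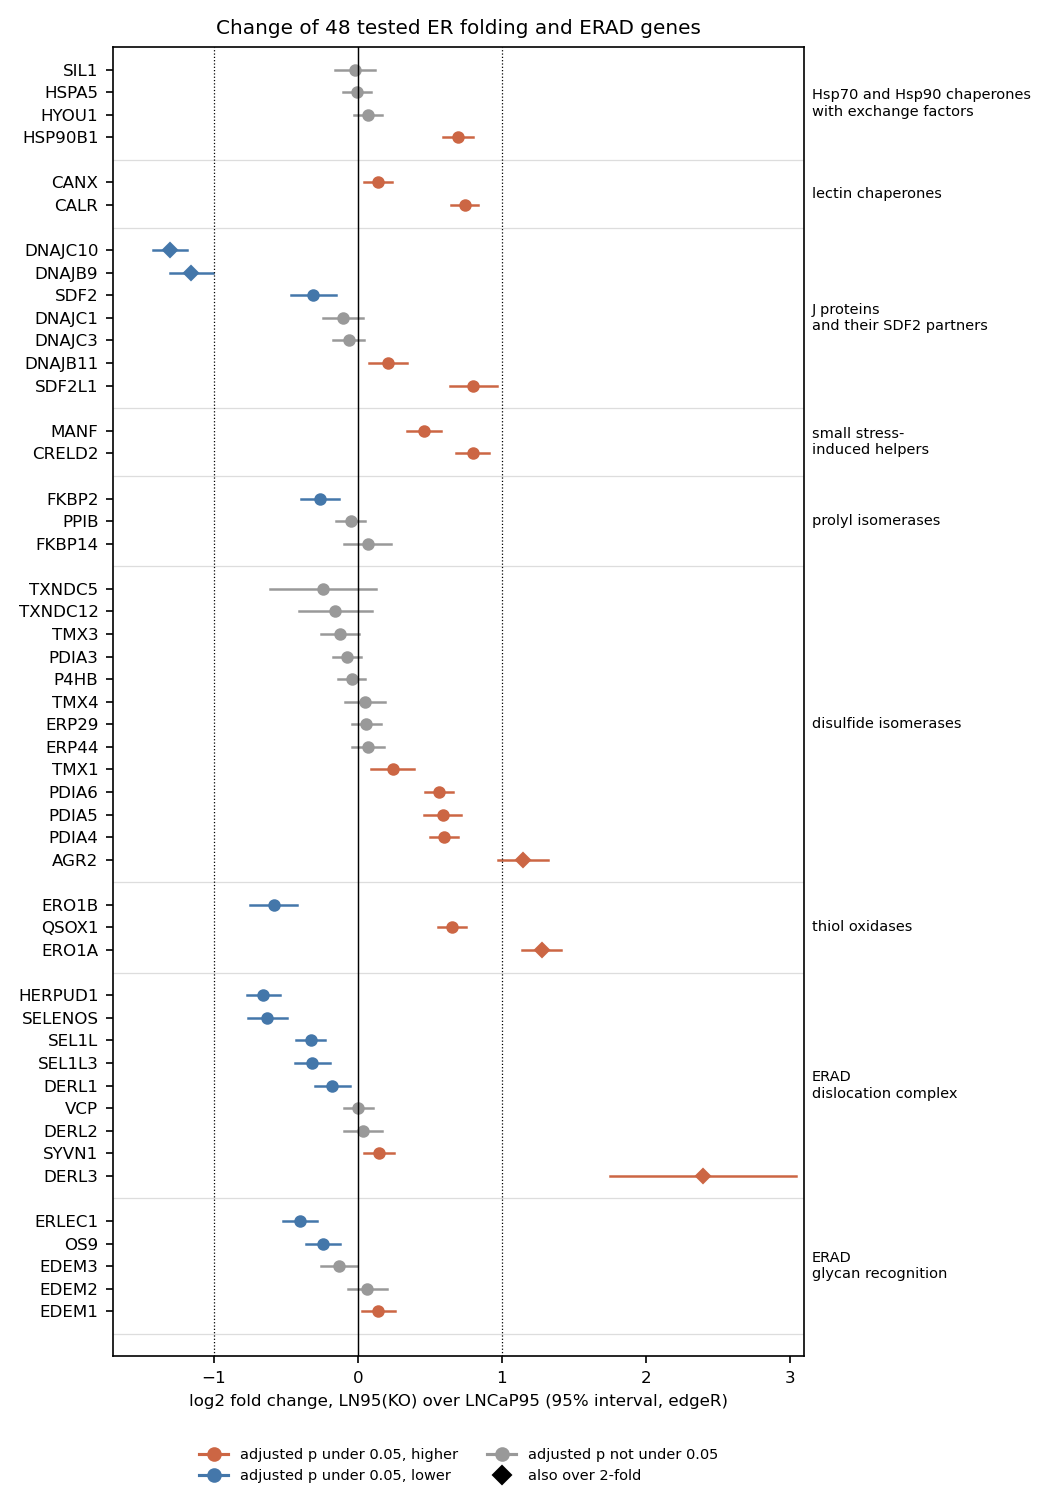
Log2 fold change of LN95(KO) over LNCaP95 (x axis) for each of the 48 tested genes, grouped by function, with the 95% interval from edgeR. Orange marks adjusted p under 0.05 and higher, blue marks under 0.05 and lower, grey marks the rest, and diamonds mark the 5 called genes. All but the 5 diamonds lie between the dotted lines at 2-fold, and 7 of the 14 ERAD genes are blue against 1 of the 16 disulfide enzymes.

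Among the Hsp70 and Hsp90 chaperones with their exchange factors, HSP90B1 rose and BiP did not pass the test. BiP (HSPA5, chr9:127997132-128003661 on GRCh37) is the main Hsp70 of the ER. Its level was 1024 and 988 CPM in LNCaP95 against 1023 and 985 CPM in LN95(KO). The groups overlapped, and the interval of the log2 fold change ran from -0.10 to 0.09 (edgeR adjusted p = 0.957). GRP94 (HSP90B1, chr12:104323885-104347709), which folds integrins and Toll-like receptors, was at 1509 and 1435 CPM in LNCaP95 against 2474 and 2288 CPM in LN95(KO). Both LN95(KO) libraries were higher, with a log2 fold change of 0.69 (SE 0.05, edgeR adjusted p = 2.16e-09).

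The exchange factor HYOU1, which helps BiP release its substrate, was at 513 and 525 CPM in LNCaP95 against 554 and 534 CPM in LN95(KO). These ranges did not overlap, yet the log2 fold change of 0.07 did not pass the test (interval -0.03 to 0.17, edgeR adjusted p = 0.213). SIL1, the other exchange factor, had a log2 fold change of -0.02 (adjusted p = 0.791). Per length, HSPA5 was the highest of the 4 over all libraries, at 154 RPKM in both groups, while HSP90B1 went from 112 to 182 RPKM. With the longest transcript as the length the order turned, with means over all libraries of 292 RPKM for HSP90B1 and 186 RPKM for HSPA5.

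Both lectin chaperones rose. Calreticulin (CALR, chr19:13049392-13055303), the soluble one, was at 1185 and 1207 CPM in LNCaP95 against 1999 and 2006 CPM in LN95(KO). The LN95(KO) libraries were higher without overlap, with a log2 fold change of 0.74 (SE 0.04, edgeR adjusted p = 1.73e-10). It had the highest level per length of all 49 genes, at 427 RPKM in LNCaP95 and 715 RPKM in LN95(KO). Calnexin (CANX), its membrane-bound counterpart, had a log2 fold change of only 0.14 (adjusted p = 0.0132), which was lost without LNCaP95 replicate 1 (0.105) or replicate 2 (0.140).

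Among the 7 J proteins and SDF2 partners, 2 rose and 3 fell, and the largest decreases of the whole set were here. J proteins hand substrates to BiP and switch on its ATPase. DNAJC10 (ERdj5, chr2:183580982-183659191), which also reduces wrong disulfides before ERAD, was at 214 and 219 CPM in LNCaP95 against 92.4 and 82.7 CPM in LN95(KO). DNAJB9 (ERdj4, chr7:108210311-108215294), which represses the stress sensor IRE1, was at 104 and 99.6 CPM in LNCaP95 against 49.4 and 41.9 CPM in LN95(KO). Both genes were lower in both LN95(KO) libraries, with log2 fold changes of -1.30 (SE 0.06, edgeR adjusted p = 2.70e-12) for DNAJC10 and -1.16 (SE 0.07 and adjusted p = 2.15e-10) for DNAJB9.

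The other J proteins had smaller changes. DNAJB11 (ERdj3), a soluble cofactor that escorts unfolded chains, rose by a log2 fold change of 0.21 (edgeR adjusted p = 0.00827, but 0.0889 without LNCaP95 replicate 2 and 0.0530 with DESeq2). DNAJC3 (P58IPK, -0.06) and DNAJC1 (-0.10) did not pass the test. SDF2L1 and SDF2 are related partners of ERdj3 and changed in opposite directions. SDF2L1 was at 27.5 and 25.6 CPM in LNCaP95 against 43.9 and 48.7 CPM in LN95(KO), for a log2 fold change of 0.80 (SE 0.08 and adjusted p = 1.09e-07) with no overlap. SDF2 fell, with a log2 fold change of -0.31 (adjusted p = 0.00191).

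The small helpers CRELD2 and MANF, both ER-resident products of the unfolded protein response, rose together. CRELD2 was at 64.9 and 64.5 CPM in LNCaP95 against 114 and 111 CPM in LN95(KO), with a log2 fold change of 0.80 (SE 0.05, edgeR adjusted p = 1.21e-09). MANF, which stabilizes BiP bound to its client, was at 173 and 164 CPM in LNCaP95 against 220 and 243 CPM in LN95(KO), with a log2 fold change of 0.46 (adjusted p = 1.57e-06). In neither gene did the groups overlap.

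Of the 3 prolyl isomerases, which turn proline bonds during folding, 1 fell and 2 did not pass the test. FKBP2 was at 89.9 and 83.5 CPM in LNCaP95 against 68.9 and 75.4 CPM in LN95(KO), lower without overlap, with a log2 fold change of -0.26 (edgeR adjusted p = 0.00148). Of its exon bases, 71.0% overlap another annotated gene, and whether this lowered its count was not tested. This and the exon overlaps given below come from a later GENCODE release than the paper names for counting. PPIB (cyclophilin B) had a log2 fold change of -0.05 and FKBP14 of 0.07.

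Of the 13 tested disulfide isomerases, 5 rose, no tested member had an edgeR adjusted p under 0.05 on the lower side, and 8 did not pass. The risers were AGR2, PDIA4, PDIA5, PDIA6 and TMX1. PDIA4 (ERp72, chr7:148700154-148725754) was at 670 and 655 CPM in LNCaP95 against 1001 and 1005 CPM in LN95(KO), with no overlap and a log2 fold change of 0.60 (SE 0.04 and adjusted p = 3.69e-09). PDIA5 (0.59, adjusted p = 2.29e-07) and PDIA6 (0.56, adjusted p = 1.48e-08) were higher by similar amounts, with 25.2% of the exon bases of PDIA6 overlapping another gene. AGR2 (chr7:16831435-16873057), which assists mucin folding in secretory epithelium, was at 16.2 and 17.5 CPM in LNCaP95 against 38.1 and 36.6 CPM in LN95(KO). Both LN95(KO) libraries were higher by more than the spread of either group, with a log2 fold change of 1.15 (SE 0.08 and adjusted p = 2.37e-09). Tested against a 2-fold change rather than against no change (edgeR's glmTreat), AGR2 alone of the 5 called members no longer passed (adjusted p = 0.114). DNAJB9 passed narrowly (glmTreat adjusted p = 0.04685), and DNAJC10, ERO1A and DERL3 had at most 0.0006431.

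The 3 isomerases that the study examined as proteins did not pass the test. P4HB (PDIA1), the classical protein disulfide isomerase, was at 1108 and 1105 CPM in LNCaP95 against 1082 and 1065 CPM in LN95(KO), with an interval of -0.14 to 0.05 on the log2 scale (edgeR adjusted p = 0.415). PDIA3 (ERp57), which works with calnexin and calreticulin on glycoproteins, was at 886 and 845 CPM in LNCaP95 against 819 and 822 CPM in LN95(KO), with an interval of -0.17 to 0.02 (adjusted p = 0.160). ERP44, which retains ERO1 in the early secretory pathway, was at 93.2 and 93.3 CPM in LNCaP95 against 97.8 and 97.9 CPM in LN95(KO), with an interval of -0.04 to 0.18 (adjusted p = 0.276). In each of the 3 genes the libraries of the groups did not overlap, as in 79.8% of all genes tested.

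The membrane-bound TMX1 rose by a log2 fold change of 0.24 (edgeR adjusted p = 0.00667, but 0.0583 without LNCaP95 replicate 2 and 0.0623 with DESeq2), while TMX3 (-0.12) and TMX4 (0.05) did not pass. ERP29 (0.06) did not pass either. TXNDC5 (-0.24) and TXNDC12 (-0.16) had few reads, at most 102 and 202 in a library, and 61.1% and 65.1% of their exon bases overlap other genes. By default HTSeq does not count a read that falls on more than 1 gene. Per length, PDIA4 was the highest isomerase, at 201 RPKM in LNCaP95 and 304 RPKM in LN95(KO), followed in LNCaP95 by P4HB (99.4 RPKM), PDIA3 (73.5 RPKM) and ERP29 (62.7 RPKM). With the longest transcript as the length the order in LNCaP95 turned, with PDIA3 at 234 RPKM, PDIA4 at 227 RPKM and P4HB at 135 RPKM.

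All 3 thiol oxidases changed, in different directions. ERO1A (chr14:53106633-53162618), the widely expressed enzyme that reoxidizes P4HB, was at 30.9 and 30.8 CPM in LNCaP95 against 74.9 and 74.5 CPM in LN95(KO). It was higher in both LN95(KO) libraries, with a log2 fold change of 1.28 (SE 0.06, edgeR adjusted p = 1.67e-11). ERO1B (chr1:236377981-236445319), the form typical of secretory tissue, was at 46.6 and 45.9 CPM in LNCaP95 against 33.2 and 28.5 CPM in LN95(KO), for a log2 fold change of -0.59 (SE 0.08 and adjusted p = 5.42e-06). QSOX1, an oxidase of the Golgi and the secreted space, was at 368 and 361 CPM in LNCaP95 against 571 and 574 CPM in LN95(KO), for a log2 fold change of 0.65 (SE 0.05 and adjusted p = 1.41e-09). None of the 3 overlapped between groups, and QSOX1 was the most abundant per length (39.3 and 61.7 RPKM).

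**Figure D2:**
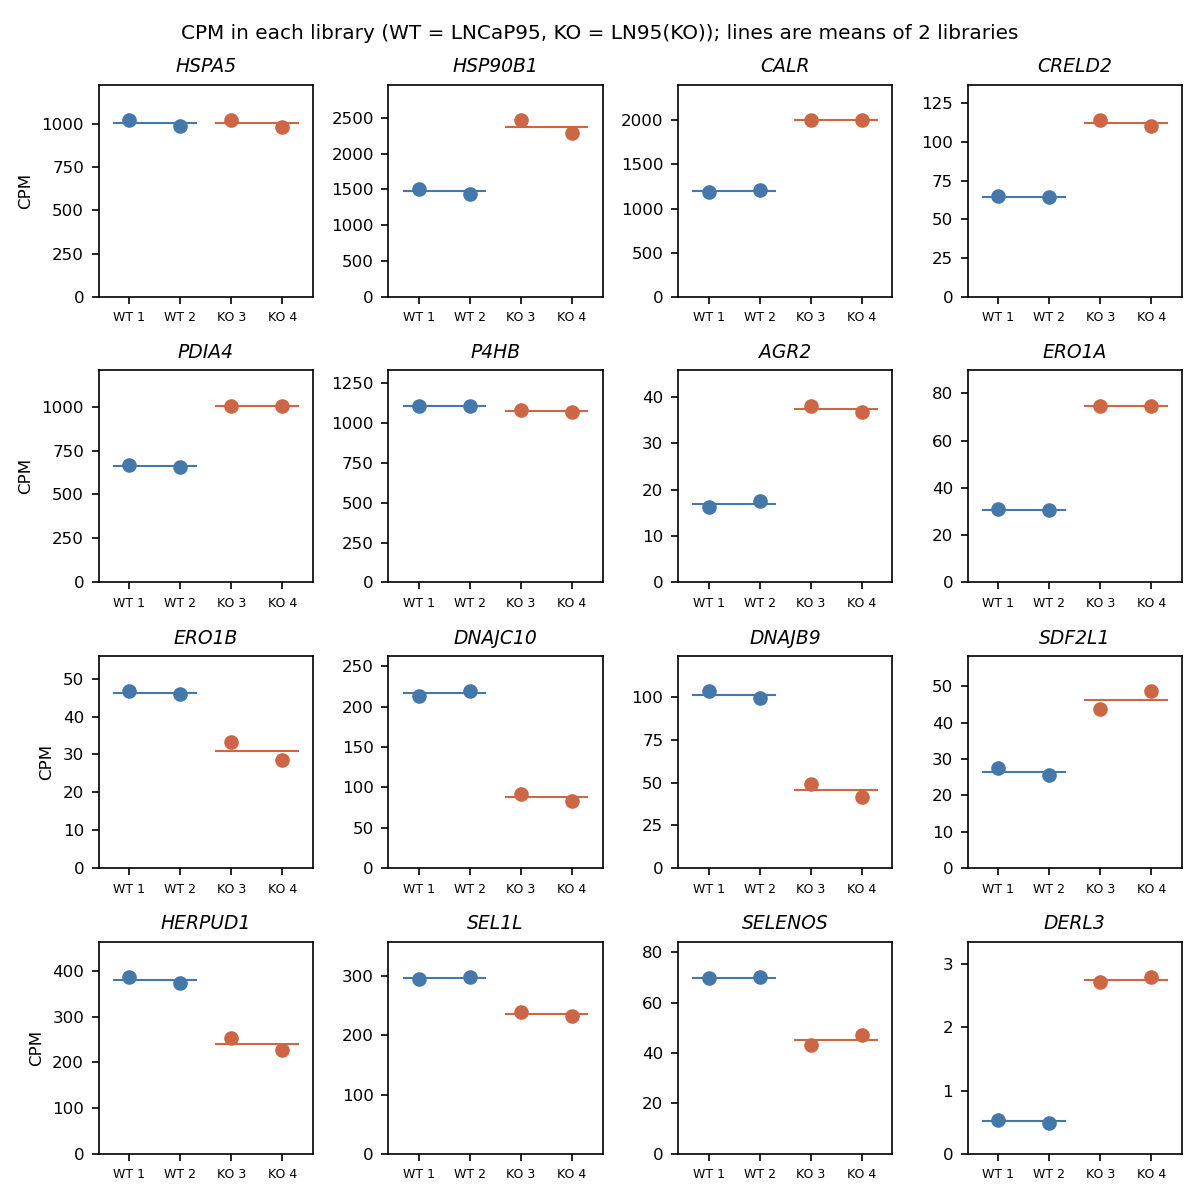
Level in CPM (y axis from 0) of 16 of the genes in each of the 4 libraries, with a line at the mean of 2 libraries. Blue is LNCaP95 (WT 1 and 2) and orange is LN95(KO) (KO 3 and 4). The 2 libraries of a group lie close together, HSPA5 is at the same height in both groups, and ERO1A and ERO1B are displaced in opposite directions.

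Of the 9 genes listed under the ERAD dislocation complex, which moves misfolded proteins back to the cytosol, 5 fell, 2 rose and 2 did not pass. HERPUD1 (chr16:56966054-56978776), a scaffold that organizes the SYVN1 complex, was at 387 and 374 CPM in LNCaP95 against 254 and 228 CPM in LN95(KO). It was lower in both LN95(KO) libraries, with a log2 fold change of -0.66 (SE 0.05, edgeR adjusted p = 1.30e-08). SEL1L (chr14:81937891-82000197), the adaptor of SYVN1, was at 294 and 298 CPM in LNCaP95 against 239 and 233 CPM in LN95(KO), with a log2 fold change of -0.33 (SE 0.05 and adjusted p = 1.09e-05) and no overlap.

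SELENOS, the selenoprotein that recruits VCP to the membrane, fell with a log2 fold change of -0.63 (edgeR adjusted p = 2.19e-07). SEL1L3, listed here as a SEL1L relative, fell with a log2 fold change of -0.32 (adjusted p = 1.43e-04). DERL1, a channel component, fell by less (-0.18, adjusted p = 0.0125, but 0.106 without LNCaP95 replicate 1 and 0.0522 without replicate 2). SYVN1 (HRD1), the ubiquitin ligase itself, rose by a log2 fold change of 0.15 (adjusted p = 0.0145, but 0.183 and 0.0688 without those same libraries).

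DERL2 (0.04) and the extracting ATPase VCP (0.00) did not pass the test, and VCP had an interval of -0.09 to 0.10. DERL3 (chr22:24176690-24181315), an inducible derlin, had 10 and 9 reads in LNCaP95 against 48 and 51 reads in LN95(KO), for a log2 fold change of 2.40 (SE 0.31, edgeR adjusted p = 3.07e-06). Both LN95(KO) libraries were higher, but the gene was the lowest of the 48 tested, and 77.0% of its exon bases overlap SMARCB1 on the other strand in a count that did not use strand. Without strand, reads on the shared bases cannot be assigned to either gene.

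Among the 5 genes of ERAD glycan recognition, 2 fell and 1 rose. ERLEC1 (chr2:54014146-54060175), a lectin that reads trimmed sugar chains, was at 93.5 and 92.1 CPM in LNCaP95 against 71.6 and 69.0 CPM in LN95(KO), lower without overlap (log2 fold change -0.40, SE 0.06, edgeR adjusted p = 8.76e-06). OS9, its partner lectin, fell with a log2 fold change of -0.24 (adjusted p = 0.00134). EDEM1, a mannosidase-like protein, was at 91.3 and 87.4 CPM in LNCaP95 against 101 and 96.7 CPM in LN95(KO), for a log2 fold change of 0.14 (adjusted p = 0.0348). That small rise was lost without either LNCaP95 library (0.0880 and 0.283) or without LN95(KO) replicate 3 (0.0863).

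EDEM2, which makes the first cut of the mannose chain, was at 47.8 and 47.9 CPM in LNCaP95 against 50.5 and 49.7 CPM in LN95(KO), with an interval of -0.07 to 0.20 (edgeR adjusted p = 0.395). EDEM3 had a log2 fold change of -0.13 that did not pass (adjusted p = 0.0706), but did without LN95(KO) replicate 3 (-0.22, adjusted p = 0.00219). HERPUD1 and EDEM2 were the most abundant per length of their groups, HERPUD1 at 75.1 and 47.6 RPKM and EDEM2 at 25.4 and 26.6 RPKM in LNCaP95 and LN95(KO). By the longest transcript OS9 (39.4 RPKM over all libraries) was above EDEM2 (26.0 RPKM).

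The classes are set side by side by their counts. Of 18 folding helpers, 7 rose and 4 fell (median log2 fold change 0.03). Of 16 tested disulfide enzymes, 7 rose and 1 fell (median 0.06). Of 14 ERAD genes, 3 rose and 7 fell (median -0.16). Of all genes 29.8% rose and 30.1% fell, while the share of risers was the larger one in the disulfide enzymes and the share of fallers the larger one in ERAD. The difference between classes was not tested, because genes of a class are not replicates and 2 libraries against 2 cannot give a permutation p under 0.33. The median absolute log2 fold change was 0.24 in folding helpers, 0.24 in disulfide enzymes and 0.21 in ERAD, against 0.37 over all genes. Here too expression level was not matched. Small changes depended on scaling. With upper-quartile factors CANX, SYVN1 and EDEM1 no longer passed (edgeR adjusted p = 0.0577, 0.0582 and 0.117), and PDIA3, TMX3 and EDEM3 passed on the lower side (0.0333, 0.0337 and 0.0233). With library totals HYOU1 and ERP29 passed on the higher side (0.0282 and 0.0486) and DERL1 no longer passed (0.0720). With DESeq2, DERL1 and EDEM1 did not pass either (adjusted p = 0.0788 and 0.131).

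The weight of the classes in the transcriptome also shifted. The 49 genes took 1.17% and 1.14% of gene reads in LNCaP95 against 1.43% and 1.39% in LN95(KO). Folding helpers went from 0.587% and 0.575% to 0.792% and 0.763%, and disulfide enzymes from 0.374% and 0.366% to 0.453% and 0.449%. ERAD genes went from 0.208% and 0.204% to 0.188% and 0.179%. HSP90B1 and CALR, singled out after their values were seen, accounted for most of the gain, with 0.264% and 0.258% in LNCaP95 against 0.457% and 0.436% in LN95(KO), and the other 47 genes went from 0.905% and 0.886% to 0.976% and 0.955%. On the TMM scale the gain of those 47 was smaller, from 9225 and 9063 CPM to 9559 and 9414 CPM summed.

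**Figure D3:**
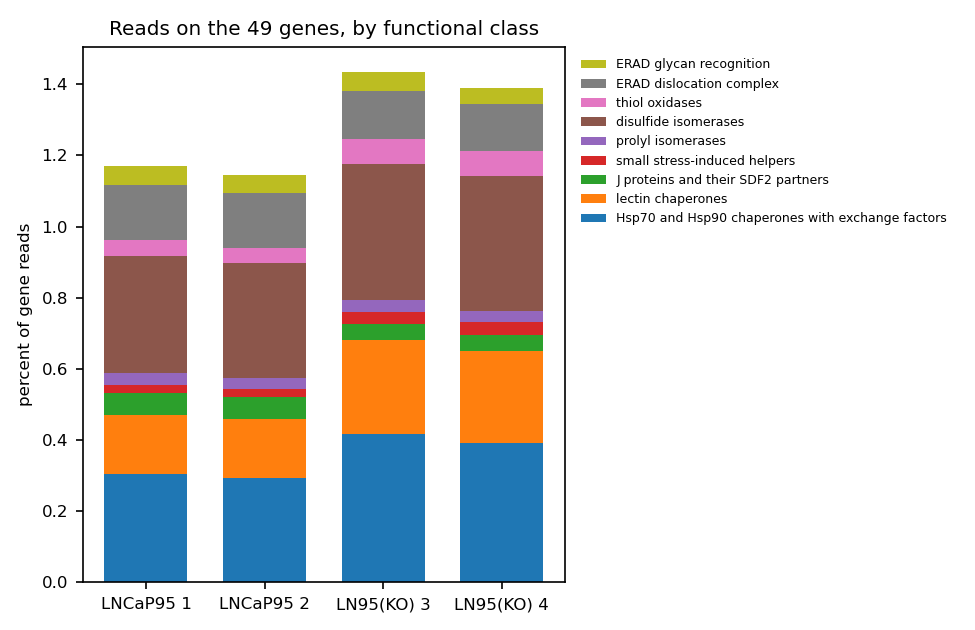
Percent of all gene reads (y axis, from 0) taken by the 49 genes in each library, stacked by functional group. The stack is taller in both LN95(KO) libraries, at 1.43% and 1.39% against 1.17% and 1.14%, mainly through the Hsp70 and Hsp90 chaperones, the lectin chaperones and the disulfide isomerases.

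Ratios of related genes within a library do not depend on scaling, and several were displaced by far more than the libraries of a group differed. ERO1A to ERO1B was 0.662 and 0.671 in LNCaP95 against 2.25 and 2.62 in LN95(KO). SDF2L1 to SDF2 rose too, from 0.655 and 0.649 to 1.40 and 1.41. DNAJB9 to DNAJB11 went the other way, from 1.85 and 1.83 to 0.752 and 0.677, as did DNAJC10 to DNAJC3, from 1.62 and 1.65 to 0.731 and 0.653. These are ratios of counts, and per length of the exon union used here no pair of these changed order. In LNCaP95, ERO1A (4.09 RPKM) was already above ERO1B (3.01 RPKM), and SDF2L1 (25.1 RPKM) above SDF2 (12.7 RPKM). DNAJB9 stayed above DNAJB11 (18.0 against 6.79 RPKM in LN95(KO)). DNAJC10 was below DNAJC3 in LNCaP95 already (8.63 against 23.7 RPKM). That order rests on exon unions of 25053 bases for DNAJC10 and 5590 for DNAJC3 in the later GENCODE release, and shorter lengths for DNAJC10 could change it.

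The BiP to GRP94 ratio (HSPA5 to HSP90B1) was 0.679 and 0.688 in LNCaP95 against 0.413 and 0.430 in LN95(KO). The calreticulin to calnexin ratio was 2.31 and 2.38 in LNCaP95 against 3.53 and 3.59 in LN95(KO). Of 14 pairs, 12 did not overlap between groups, where 79.8% of single genes did not overlap either. The exceptions were SEL1L to SEL1L3, both of which fell, and PDIA3 to P4HB, which stayed between 0.757 and 0.800 in all 4 libraries.

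**Figure D4:**
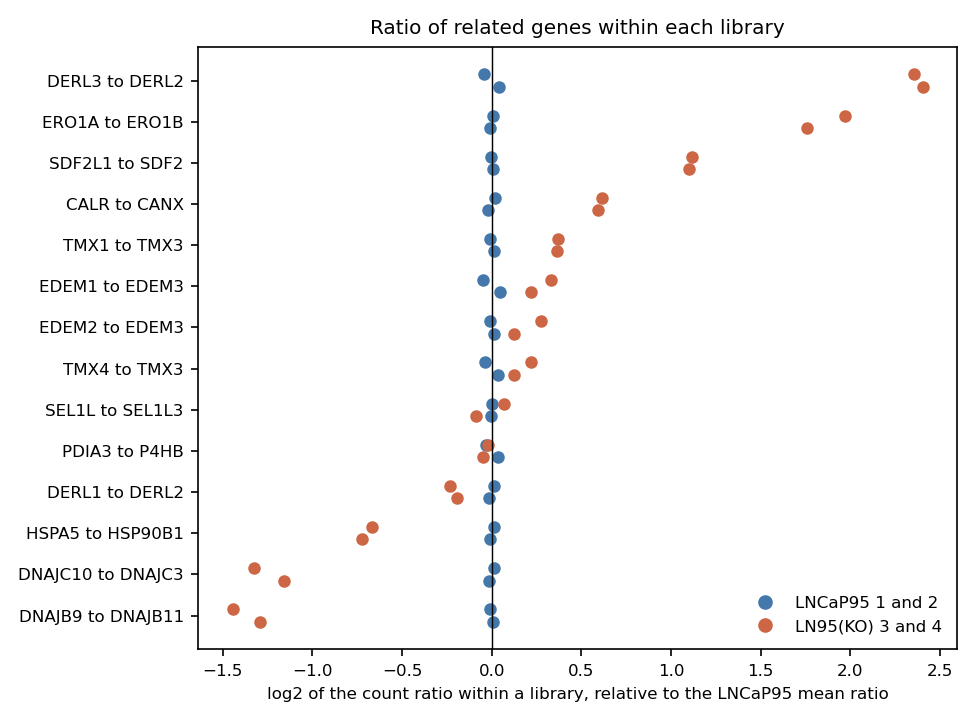
Log2 of the count ratio of 14 pairs of related genes in each library (x axis), relative to the mean ratio in LNCaP95. Blue points are the 2 LNCaP95 libraries and orange points the 2 LN95(KO) libraries. Ratios of 12 pairs do not overlap between groups, while those of SEL1L to SEL1L3 and PDIA3 to P4HB do.

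Read against these changes, the ER stress element printed above was in the promoters of 5 of the 16 risers with an entry (HSP90B1, CANX, CALR, CRELD2 and PDIA6), 1 of 11 that fell (ERO1B) and 1 of 16 that did not pass the test (HSPA5). The shorter element was in 1 promoter of each kind, SDF2L1 (rose), HERPUD1 (fell) and HYOU1 (did not pass). The unfolded protein response element TGACGTGG was in 4 of 44 members (9.09%) against 0.927% of all genes, namely DNAJC10, which fell, and HYOU1, TXNDC5 and VCP, which did not pass. In HYOU1 it overlaps the shorter element. The 5-base CCACG that ends the ER stress element was in 79.5% of members and 42.1% of all genes, matches to the longer elements included. It was in 13 of the 16 risers, all 11 that fell and 11 of the 16 that did not pass. A match is a sequence description only, and binding was not measured here.

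Related genes outside the set were described from 3 further lists. Of all genes tested, 29.8% rose, 30.1% fell and 18.0% were called. Of 27 other ER folding and disulfide genes tested, 5 rose and 15 fell (median log2 fold change -0.25, range -0.91 to 0.65), and none was called. Fallers outnumbered risers in this list, unlike in the folding helpers and disulfide enzymes of the set. Of 40 other ERAD genes tested, 8 rose and 12 fell (median -0.03), and 2.5% were called. The one called was TMEM129, an ER ubiquitin ligase, at 85.4 and 89.2 CPM in LNCaP95 against 35.3 and 33.3 CPM in LN95(KO), with a log2 fold change of -1.35 (SE 0.06, edgeR adjusted p = 8.48e-12).

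Of 38 cytosolic chaperone genes tested, 16 rose and 7 fell (median log2 fold change 0.09), and 7.89% were called against 18.0% of all genes. The called ones were FKBP5, an Hsp90 co-chaperone and known androgen receptor target, at 35.2 and 36.4 CPM in LNCaP95 against 276 and 288 CPM in LN95(KO) (log2 fold change 2.98, SE 0.06, edgeR adjusted p = 3.11e-17), and 2 small heat shock proteins. HSPB1 was at 172 and 158 CPM in LNCaP95 against 443 and 553 CPM in LN95(KO) (1.59, SE 0.11, adjusted p = 6.15e-05). HSPB8 was at 167 and 164 CPM in LNCaP95 against 53.1 and 55.6 CPM in LN95(KO) (-1.61, SE 0.05, adjusted p = 1.01e-13). None of these 4 genes overlapped between groups, as in 79.8% of all genes tested.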

How the data were processed

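The files held counts of reads per gene that the authors deposited for 4 libraries. The authors selected poly(A) RNA with oligo(dT), sequenced it on DNBseq, used HISAT2 2.1.0 for alignment to hg19 and HTSeq for counting on a GENCODE annotation, without strand per the file names. By default HTSeq leaves out reads on several genes, so members with shared exons can be counted low. Entries not counted on a gene (23.8% to 27.5%, with ambiguous and unaligned ones among them) stayed out of library sizes and tests. The series table held the same values as the single files (0 cells differed).

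Groups came from the sample labels. Counts were tested with edgeR 4.0.16 in R 4.3.3 by its quasi-likelihood test, after filtering low counts (filterByExpr, minimum 10 per library and 15 in all) with TMM factors (0.979 to 1.02), with Benjamini-Hochberg adjustment over 15626 genes. The test was checked on simulated data. Libraries of a group differed beyond sampling noise (chi-square per degree of freedom 2.31 in LNCaP95 and 3.31 in LN95(KO)). RPKM used the union of exons from GENCODE on GRCh37, which also gave the coordinates of genes and the exon overlaps. It was a later release than the paper names for counting, so its exons can differ from those counted. Promoters were read from RefSeq (GRCh38.p14), where 44 of 49 members matched and 8 had several starts, each searched.

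The members, classes and lists were chosen with earlier results of these data known. Values in every library are given for called members, for the largest change past the test in each direction and the highest RPKM in each functional group, and for members the study examined by precipitation or qPCR. Of the further lists, called genes are named. A planned count of protein motifs was not run. Alternatives were RLE, upper-quartile and library-total scaling, no filter, DESeq2 1.42.0, a test against a fold threshold (glmTreat), longest-transcript lengths, and leaving out each library.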

Additional observations from a re-analysis of the deposited data

Results flagged for a closer look

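Among the entries of the counting summary, which no comparison used, the share of entries not aligned was 3.85% and 3.96% in LNCaP95 against 8.05% and 7.707% in LN95(KO), above both LNCaP95 libraries (exact binomial 95% interval of the lowest LN95(KO) value 7.70% to 7.72%, counting error only).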

How the results depend on the processing

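The same 5 members were called under each scaling, without the filter, with DESeq2 and without any 1 library, and 4 of them, without AGR2, under glmTreat. The members past the adjusted p numbered 29, 25 with DESeq2 and 23 to 29 without 1 library, where the lone library of a group is assumed to vary like the other group. Of 48 members, 31 kept direction and side of the threshold in every setting that tested any fold, 6 lost the adjusted p in at least 1, 5 gained it and 6 changed sign. Scaling moved the median log2 fold change of all genes from -0.05 (upper-quartile) to 0.05 (library totals), and class medians with it. With library totals they were 0.0752 for all members, 0.0879 for folding helpers, 0.1195 for disulfide enzymes and -0.0995 for ERAD, and with upper-quartile factors -0.0189, -0.0062 and 0.0253 for the first 3. Without 1 library they ranged from -0.0057 to 0.0347 (all members), 0.0053 to 0.0462 (folding helpers), 0.0512 to 0.0802 (disulfide enzymes) and -0.1868 to -0.1062 (ERAD). The sign changes were in members near 0. With library totals the log2 fold change of HSPA5 was 0.0525, of SIL1 0.0336, of PPIB 0.0054 and of P4HB 0.0123. With upper-quartile factors that of DERL2 was -0.0031 and of VCP -0.0346, and without the filter that of VCP was -0.0019. Without 1 library HSPA5 ranged from -0.0315 to 0.0242, SIL1 from -0.0538 to 0.0050, DERL2 from -0.0100 to 0.0792 and VCP from -0.0150 to 0.0206. The cause was not tested. No paired analysis was possible because labels number the LNCaP95 libraries 1 and 2 and the LN95(KO) libraries 3 and 4. Depth limits DERL3, TXNDC5 and TXNDC12 most.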
